A study of Homo sapiens with 6 samples.

Results

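The genes described here are 31 members of the glycolytic pathway in the broad sense: the enzymes from hexokinase to lactate dehydrogenase, the transporters that bring glucose in and carry lactate out, and the enzymes that set or branch off the flow. They were chosen by name, and all 31 were found among the 60843 rows of the gene count table. All 31 passed the filter on low counts. Values come from 6 RNA sequencing libraries of BJ cells (genotype WT), a fibroblast line derived from normal human foreskin, with 2 libraries for each of day 0, day 2 and day 5. Before day 0 the cells grew in DMEM with serum and were plated on poly-D-lysine. The libraries of day 0 are labelled BJ and fibroblast. Those of day 2 are labelled FiN and induced neuron and followed a switch to neuronal induction medium with 10 µM forskolin. On day 2 the medium became neuronal maturation medium, again with 10 µM forskolin, in which the FiN cells of day 5 were kept. The treatment tag of all 6 libraries, day 0 included, reads reprogramming. Forskolin activates adenylyl cyclase, the enzyme that makes cAMP. No cells kept in the new media without forskolin were analysed here, so time, serum, medium and drug cannot be told apart. Whether the libraries of each day stem from separate cultures is not stated, so the p-values below reflect the scatter among libraries alone, and that scatter may be technical.

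Glycolysis splits glucose into pyruvate in the cytosol and yields ATP and NADH. Hexokinase, phosphofructokinase and pyruvate kinase catalyse its near-irreversible steps, and phosphofructokinase is tuned by fructose 2,6-bisphosphate, which the bifunctional PFKFB enzymes make and degrade. Lactate dehydrogenase turns pyruvate into lactate, which monocarboxylate transporters carry across the membrane. Most steps have several isozymes encoded by separate genes. Proliferating cells in culture are known for a high glycolytic flow, and neurons for drawing on oxidative metabolism and on lactate taken up from their surroundings. The values here are mRNA levels and do not measure flow, glucose uptake or lactate release.

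Library totals ran from 17605858 to 27953926 expected counts, and the day 5 libraries were the shallowest. Levels are given as CPM, counts relative to the library total after scaling by TMM factors, and changes as log2 fold changes with their standard error (SE) from edgeR's quasi-likelihood test. Adjusted p-values are Benjamini-Hochberg values across the 16327 genes tested. The labels call the cells of day 2 and day 5 induced neurons. Of 10 neuronal markers 4 had enough counts to be tested. The summed level of all 10 went from 242.5 and 251 CPM on day 0 to 149 and 156 CPM on day 2 and 106 and 111 CPM on day 5. Most of that sum was TUBB3, at 223 and 229 CPM on day 0 and 87.1 and 87.6 CPM on day 5. MAP2 fell as well, from 11.75 and 14.15 CPM on day 0 to 0.36 and 1.31 CPM on day 5. SNAP25 went the other way, from 5.76 and 6.01 CPM to 16.8 and 19.8 CPM. STMN2 and ELAVL4 had 0 counts in all 6 libraries, where 3 counts correspond to 0.103 to 0.180 CPM. The 9 fibroblast markers summed to 16173 and 16460 CPM on day 0, 13608 and 13772 CPM on day 2 and 22827 and 23148 CPM on day 5, but went different ways. COL1A2 went from 4992 and 5107 CPM on day 0 to 14183 and 14445 CPM on day 5 and PDGFRA from 340.4 and 327 CPM to 2671 and 2607 CPM, while VIM went from 4841 and 4853 CPM to 1456 and 1473 CPM and DCN from 1049 and 1037 CPM to 201 and 203.5 CPM. Markers of epithelium summed to at most 0.6 CPM. Of the endothelial markers, KDR went from 3.705 and 4.602 CPM on day 0 to 63.3 and 60.1 CPM on day 5, while VWF, PECAM1 and CDH5 stayed at or below 2.03 CPM in all libraries. Those of blood cells summed to at most 5.50 CPM, those of glia to at most 18.1 CPM and those of melanocytes to at most 9.60 CPM. The part of these shifts in the results below was not tested. In bulk RNA, fewer cells of a kind and less RNA per cell cannot be told apart.

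The pathway took a smaller part of the transcriptome on each later day. The 31 genes together held 1.56% of all counts in each day 0 library, 1.01% and 1.02% on day 2, and 0.722% and 0.725% on day 5. Without GAPDH, which alone held 0.422% and 0.425% on day 2 and 0.238% and 0.24% on day 5, the later fall was smaller. The others held 1.11% in each day 0 library, 0.584% and 0.591% on day 2, and 0.484% and 0.485% on day 5. These are shares of unscaled library totals, of which IGFBP5 alone held a mean of 0.379% on day 0 and 10.7% on day 5. The part of IGFBP5 in the smaller shares was not tested. On day 2 against day 0, 21 were lower and 10 higher, so that all 31 were called, beside 66.8% of all genes tested (33.4% lower and 33.4% higher). On day 5 against day 0, 22 were lower, 5 higher and 4 were not called, where 69.9% of all genes were called, 34.1% lower and 35.8% higher. Between day 2 and day 5, 20 were lower, 8 higher and 3 not called, beside 65.8% of all genes, 33.7% lower and 32.1% higher. These 3 comparisons share libraries and are not independent of each other. The median log2 fold change of the 31 was -0.30, -0.55 and -0.31 in these comparisons, and that of all genes was 0.00, 0.04 and 0.01.

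Calls were this frequent among all genes, and a stricter test, glmTreat, asked which changes exceeded 2-fold. On day 2 against day 0 these were 5 of the 31 lower (SLC2A1, ENO1, PFKFB2, PKM and LDHA) and 1 higher (SLC16A7), beside 5.54% lower and 6.99% higher (12.5% in all) of the genes tested. On day 5 against day 0 they were 9 lower (SLC2A1, HK1, HK2, PFKP, PFKFB3, ENO1, PKM, LDHA and SLC16A3) and 2 higher (ENO3 and SLC16A1), beside 10.3% and 9.74% (20.1% in all). From day 2 to day 5 they were 5 lower (HK2, PFKP, PFKFB4, SLC16A3 and SLC16A7) and 0 higher, beside 7.96% and 6.41% (14.4% in all). Among these, 0 were higher by glmTreat at an unadjusted p under 0.05 too, while edgeR without the 2-fold limit and DESeq2 each called 8 higher. Scaling by library totals in place of TMM moved the median gene to -0.18 on day 2 and -0.16 on day 5 against day 0, and the share of called genes that were higher from 50.0 to 38.1% and from 51.2 to 39.0%. Under that scaling the day 2 counts for the 31 became 22 lower and 8 higher, and those on day 5 against day 0 became 26 lower and 4 higher.

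**Figure D1:**
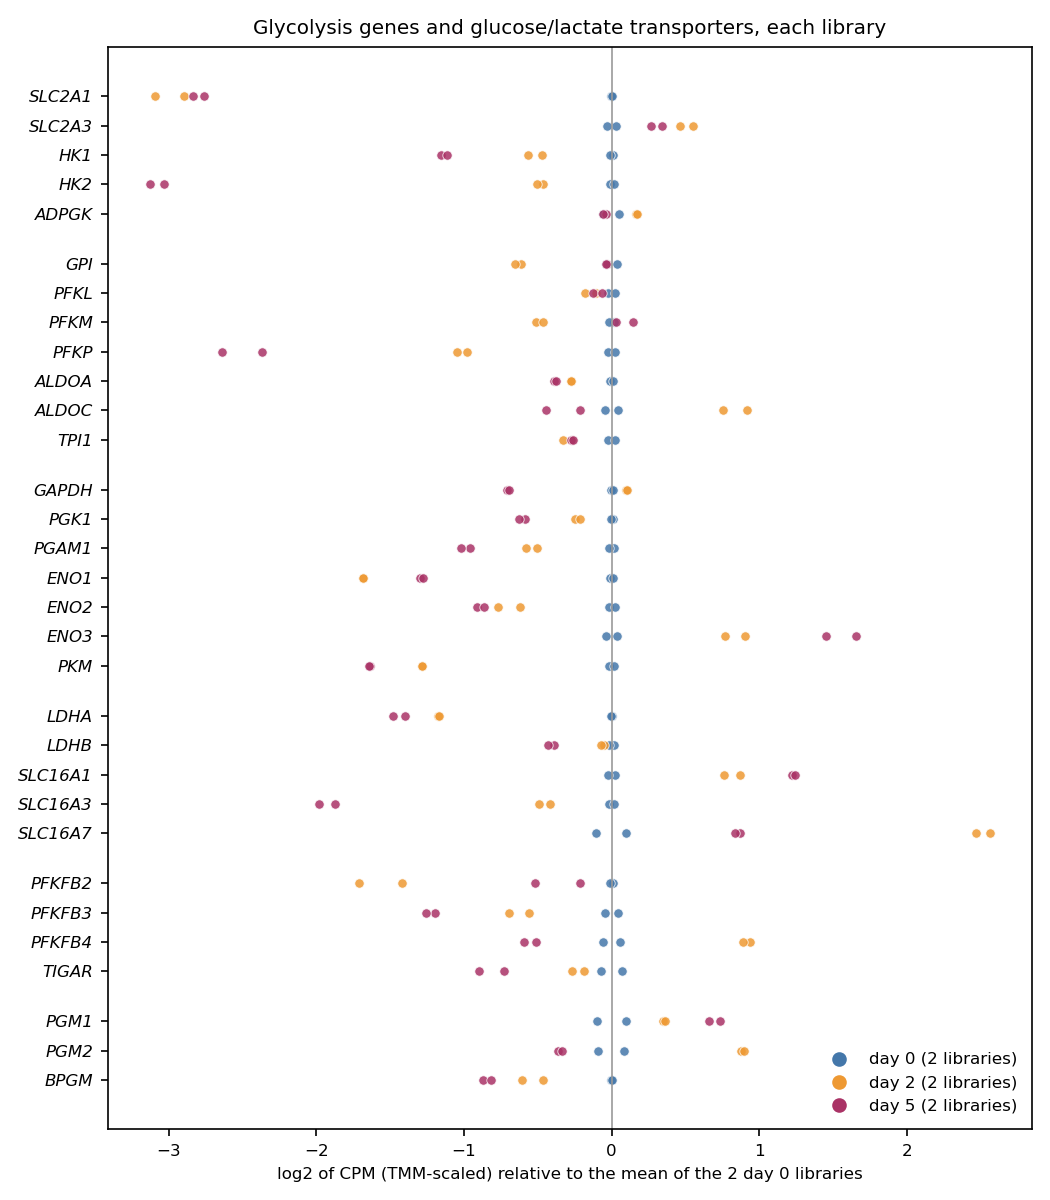
Level of each of the 31 genes in each of the 6 libraries (points, coloured by day), as log2 of TMM-scaled CPM relative to the mean of the 2 day 0 libraries (x axis, vertical line at 0), with genes grouped by role (y axis). SLC2A1 on both later days and HK2 and PFKP on day 5 lie far to the left, and SLC16A7 on day 2 lies farthest to the right.

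The genes followed several courses over the 2 intervals. The commonest, with 13 genes, was a fall from day 0 to day 2 and a further fall to day 5: HK1, HK2, PFKP, PFKFB3, ALDOA, PGK1, PGAM1, PKM, LDHA, LDHB, SLC16A3, BPGM and TIGAR. Another 3 (PFKL, TPI1 and ENO2) were lower on day 2 and were not called between day 2 and day 5. A fall followed by a rise was called for 5 genes, SLC2A1, GPI, PFKM, PFKFB2 and ENO1. A rise to day 2 followed by a fall to day 5 was called for SLC2A3, PFKFB4, ALDOC, SLC16A7 and PGM2. GAPDH and ADPGK fell from day 2 to day 5, and no direction is given for their day 2 difference, which was 0.10 and 0.16 with TMM and -0.08 and -0.02 with library totals. Both stand among the 10 genes counted as higher on day 2. The remaining 3, ENO3, SLC16A1 and PGM1, were higher on day 2 and higher again on day 5. Some calls behind these courses were lost when a single library was left out. These were the day 2 calls of LDHB, TIGAR and PFKL, and those of BPGM and SLC2A1 from day 2 to day 5.

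**Figure D2:**
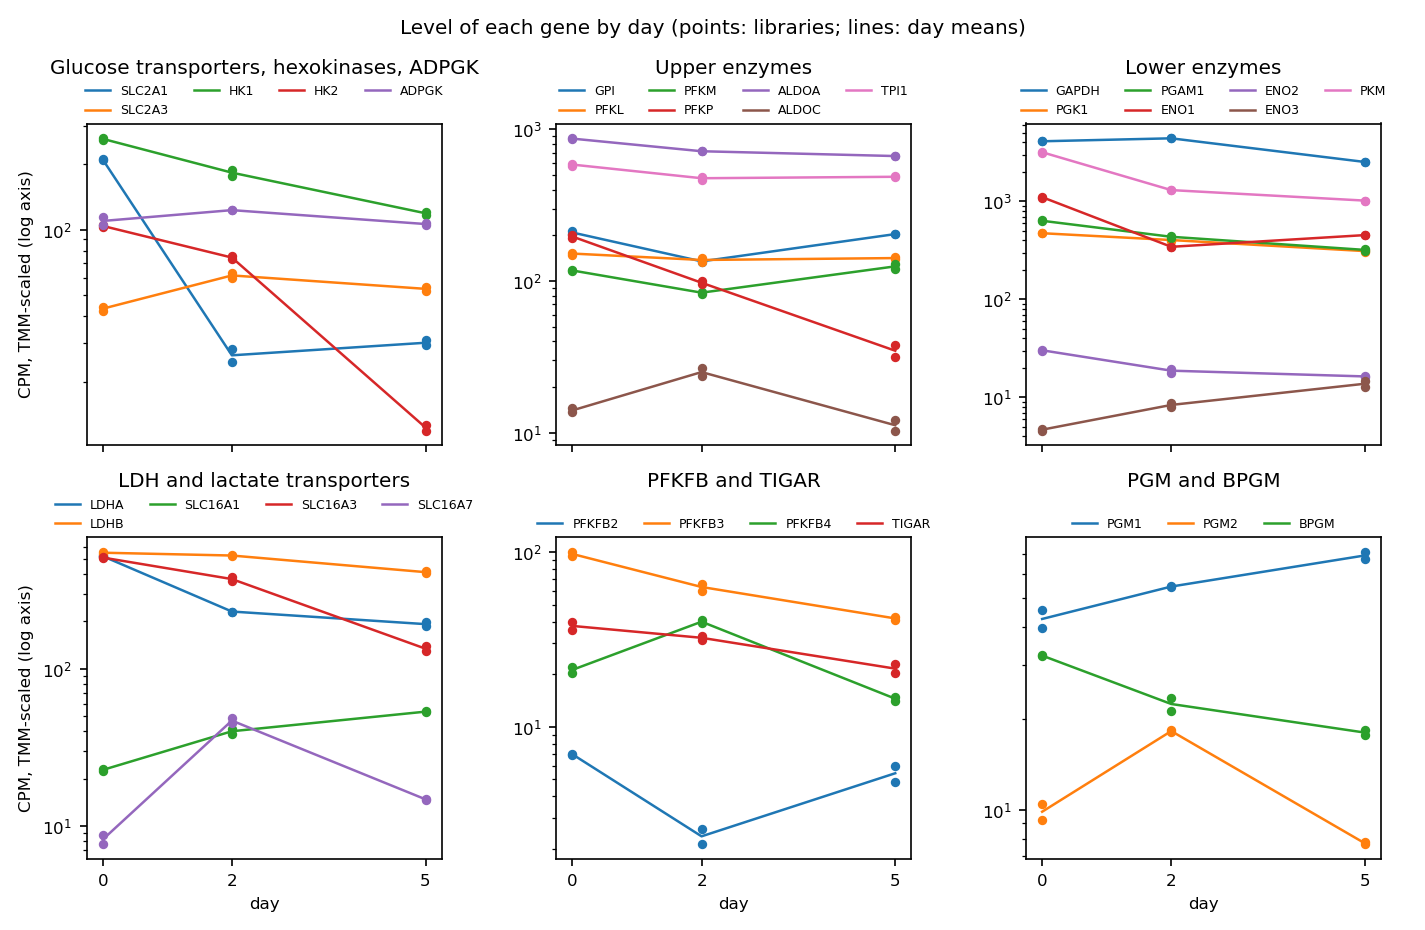
TMM-scaled CPM (y axis, log scale) against day (x axis) for the genes of each role, with points for single libraries and lines through day means. SLC2A1 drops between day 0 and day 2, HK2 and SLC16A3 drop mainly between day 2 and day 5, and SLC16A7, PFKFB4, PGM2 and ALDOC peak on day 2.

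Glucose enters these cells through facilitative transporters, and the main fibroblast form, SLC2A1 (GLUT1, ENSG00000117394, chromosome 1 at 42925375 to 42959176 of GRCh38), had the lowest log2 fold change of the 31 on day 2. It stood at 209 and 211 CPM on day 0, 24.6 and 28.3 CPM on day 2 and 29.4 and 30.9 CPM on day 5. The days did not overlap, and the fall to day 2 was 7.91-fold (log2 fold change -2.98 ± 0.05, edgeR adjusted p = 7.6e-18). The small rise from day 2 to day 5 (0.19 ± 0.07, edgeR adjusted p = 0.0261) was no longer called without day 2 replicate 1 (0.261), without day 5 replicate 2 (0.162), without a count filter (0.058), in a fit of these days alone (0.0633) and with limma-voom (0.0516). The other glucose transporter among the 31 was SLC2A3 (GLUT3), the high-affinity form that is abundant in neurons. SLC2A3 went from 44.1 and 42.4 CPM to 59.7 and 63.4 CPM on day 2 and 54.7 and 52.0 CPM on day 5. Its rise on day 2 was 1.42-fold (edgeR adjusted p = 2.5e-07), while the 1.23-fold difference on day 5 was not called with library totals (edgeR adjusted p = 0.145). Its near-identical relative SLC2A14 had 12 counts over all 6 libraries. Within a library the log2 ratio of SLC2A3 to SLC2A1 counts, which no scaling factor can alter, went from -2.24 and -2.31 on day 0 to 1.28 and 1.16 on day 2 and 0.89 and 0.75 on day 5. Per length of transcript, SLC2A3 made 15.7 and 15.1% of the sum of both on day 0 and 68.2 and 66.5% on day 2.

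Hexokinases phosphorylate glucose and trap it in the cell. HK1 (ENSG00000156515, chromosome 10 at 69269984 to 69401884), the broadly expressed form, fell in both intervals, from 263 and 259 CPM to 177 and 189 CPM and then to 117 and 121 CPM (day 5 against day 0, log2 fold change -1.14 ± 0.04, edgeR adjusted p = 1.8e-14). HK2 (ENSG00000159399, chromosome 2 at 74833981 to 74893359), the inducible form of muscle, fat and tumour cells, stood at 103 and 105 CPM on day 0, 75.4 and 73.3 CPM on day 2 and 12.7 and 11.9 CPM on day 5. Most of its fall therefore lay between day 2 and day 5, where it was 6.05-fold (log2 fold change -2.60 ± 0.07, edgeR adjusted p = 7.5e-16), against 1.40-fold in the first interval. The share of HK2 in the length-corrected sum of both was 21.1 and 21.6% on day 0, 22.5 and 21.0% on day 2 and 6.88 and 6.30% on day 5. ADPGK, an ADP-dependent glucokinase, had 105 and 114 CPM on day 0, 123 CPM in both libraries on day 2 and 107 and 105 CPM on day 5, and was not called on day 5 against day 0 (-0.05, edgeR adjusted p = 0.329), but was with library totals (-0.25, edgeR adjusted p = 4.5e-05).

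Phosphofructokinase, which commits sugar to glycolysis, is built from 3 kinds of subunit. PFKP (ENSG00000067057, chromosome 10 at 3066333 to 3137712), the platelet type, fell from 193 and 199 CPM on day 0 to 99.7 and 95.0 CPM on day 2 and to 31.5 and 38.0 CPM on day 5. The fall over 5 days was 5.63-fold (log2 fold change -2.49 ± 0.06, edgeR adjusted p = 2.2e-16). PFKM, the muscle type, dipped from 119 and 116 CPM to 82.4 and 85.1 CPM on day 2 and was back at 119.8 and 129.7 CPM on day 5, where it was not called against day 0 (edgeR adjusted p = 0.0695). That difference of 0.09 became -0.11 with library totals (edgeR adjusted p = 0.0294), and was called as higher with the stricter filter (0.11, 0.0253) and without day 5 replicate 1 (0.15, 0.0125). PFKL, the liver type, kept within 134 to 154 CPM in all libraries. Its calls on day 2 and day 5 against day 0, of -0.14 and -0.10, were lost without day 0 replicate 2 (edgeR adjusted p = 0.0533 and 0.203). They were also lost without day 2 replicate 1 (0.0566) and without day 5 replicate 1 (0.211), respectively, and the day 5 call also with the stricter filter (0.0828). The make-up of the 3 subunits per length thus moved from 45.3 and 45.9% PFKP, with 31.6 and 32.0% PFKL and 23.1 and 22.1% PFKM, to 12.3 and 13.8% PFKP, 48.9 and 47.3% PFKL and 38.8 and 39.0% PFKM. SENP1, which overlaps PFKM on the opposite strand, stayed between 9.62 and 12.8 CPM.

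**Figure D3:**
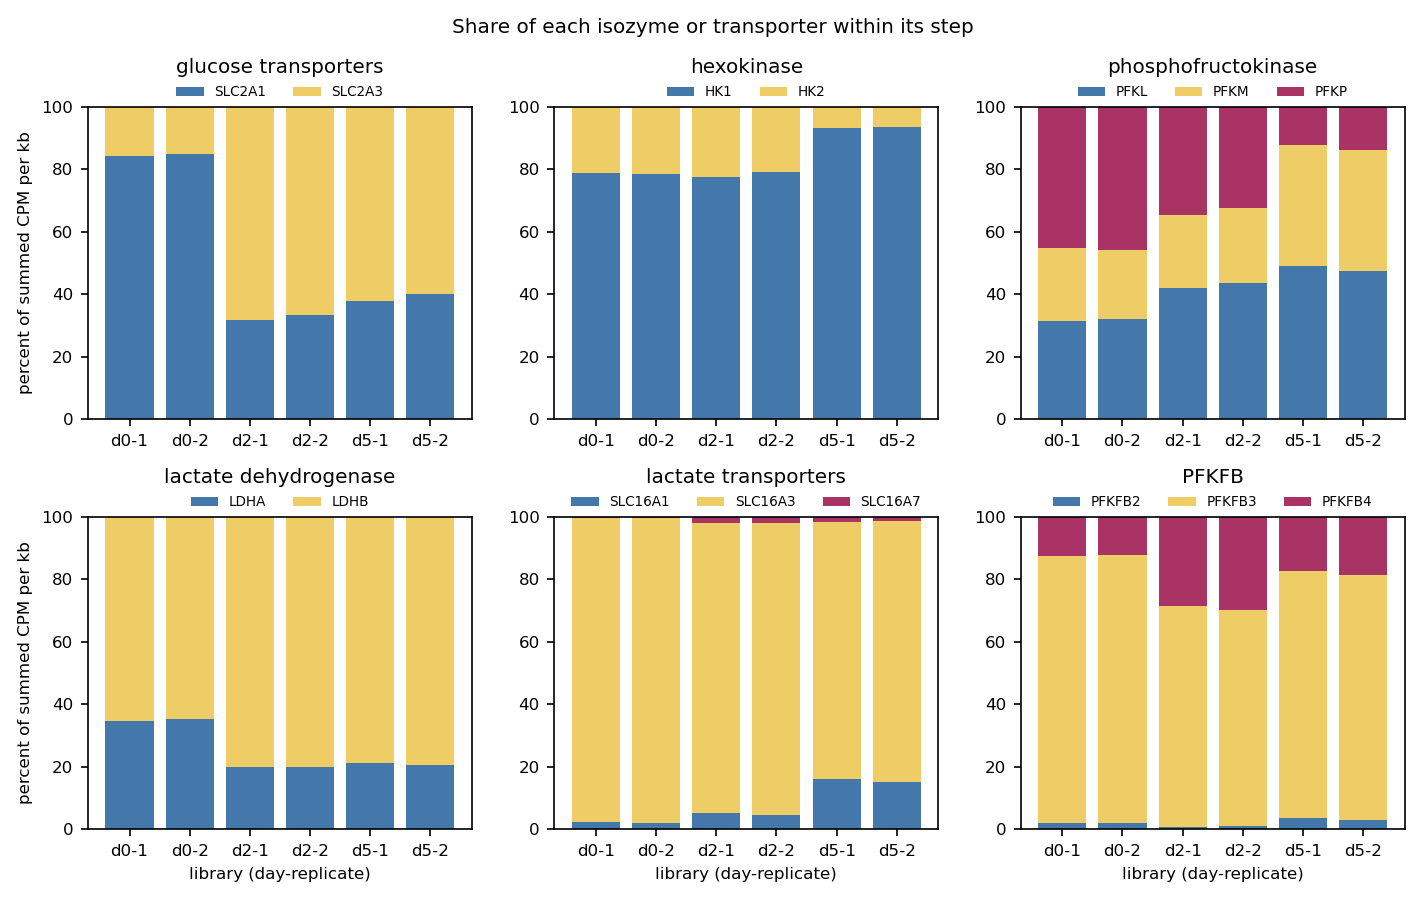
Share of each gene in the summed length-corrected level (CPM per kb) of its step, in percent (y axis, bars from 0 to 100), for the 6 libraries (x axis, day and replicate). SLC2A1 gives way to SLC2A3 on day 2, PFKP shrinks on each later day, HK2 shrinks on day 5, LDHB gains on LDHA on day 2, and SLC16A1 reaches 16 and 15.2% of the lactate transporters on day 5.

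The PFKFB enzymes set fructose 2,6-bisphosphate, the strongest activator of phosphofructokinase. PFKFB3, the form with high kinase activity, fell in both intervals, from 100.4 and 94.8 CPM to 66.1 and 60.2 CPM and 42.6 and 40.9 CPM (day 5 against day 0, log2 fold change -1.23 ± 0.06, edgeR adjusted p = 3.7e-12). PFKFB4 moved differently, from 22.1 and 20.3 CPM up to 40.6 and 39.3 CPM on day 2 and down to 14.1 and 14.9 CPM on day 5, and both intervals were called (log2 fold changes 0.92 ± 0.07 and -1.46 ± 0.08). The rare PFKFB2 had 7.02 and 6.90 CPM on day 0, 2.12 and 2.60 CPM on day 2 and 5.99 and 4.86 CPM on day 5. It fell 2.93-fold on day 2 (edgeR adjusted p = 1.3e-06) and rose again by day 5 (log2 fold change 1.19 ± 0.20), with 51 and 70 counts behind the day 2 values. Its difference between day 5 and day 0 (-0.36, edgeR adjusted p = 0.0788) was called with library totals (-0.57, 0.00904), in a fit of these days alone (-0.39, 0.0494) and without day 5 replicate 1 (-0.52, 0.0432). YOD1, which overlaps PFKFB2 on the opposite strand, went from 3.90 and 2.89 CPM to 10.5 CPM in both day 2 libraries, and reads of the pair cannot be told apart where strand is unknown. TIGAR, a phosphatase that lowers fructose 2,6-bisphosphate, fell from 39.6 and 36.0 CPM on day 0 to 20.3 and 22.8 CPM on day 5 (log2 fold change -0.81 ± 0.08, edgeR adjusted p = 1.2e-07). AC008012.1, which overlaps TIGAR on the same strand, went from 15.8 and 15.9 CPM on day 0 to 3.54 and 1.15 CPM on day 5, and how reads of the overlap were divided is not known. The small day 2 difference of TIGAR (-0.22) was not called without day 0 replicate 1 (edgeR adjusted p = 0.145) or without day 2 replicate 2 (0.1).

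Between these control points lie the isomerases and aldolases. GPI, which isomerises glucose 6-phosphate, dipped from 203 and 214 CPM to 136 and 133 CPM on day 2 (1.55-fold) and returned to 204 and 203 CPM, with no call on day 5 against day 0 (-0.04, edgeR adjusted p = 0.365). Scaling by library totals gave a call for that difference (-0.24, edgeR adjusted p = 6.0e-06), as did dropping the count filter (-0.08, 0.0367). ALDOA, the main aldolase of these cells, fell from 859.6 and 873 CPM to 715 CPM in both day 2 libraries and 661 and 668 CPM on day 5 (log2 fold change over 5 days -0.38 ± 0.02, edgeR adjusted p = 1.5e-11). ALDOC, the brain-type aldolase, rose from 14.5 and 13.6 CPM to 23.7 and 26.5 CPM on day 2 (1.79-fold, edgeR adjusted p = 7.7e-07) and had 10.3 and 12.1 CPM on day 5. Its day 5 difference from day 0 (-0.32) was not called without day 0 replicate 1 (edgeR adjusted p = 0.0928) or without day 5 replicate 1 (0.171). TPI1, which interconverts the triose phosphates, went from 575 and 593 CPM to 465 and 485 CPM and 483 and 488 CPM, a 1.2-fold fall over 5 days (edgeR adjusted p = 6.1e-08).

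The most abundant mRNA of the pathway was GAPDH (ENSG00000111640, chromosome 12 at 6533927 to 6538374), which oxidises glyceraldehyde 3-phosphate and is widely used as a reference gene. It stood at 4082 and 4119 CPM on day 0, 4378 and 4416 CPM on day 2 and 2512 and 2531 CPM on day 5. The replicates lay within a narrow band on each day, and day 5 was 1.63-fold below day 0 (log2 fold change -0.70 ± 0.01, edgeR adjusted p = 1.0e-17), or -0.91 with library totals. GAPDH alone made 28.8% of the counts of the 31 genes on day 0 in both libraries, 41.9 and 41.8% on day 2 and 33.0 and 33.1% on day 5. PGK1, the first ATP-forming kinase, fell in both intervals, from 475 and 471 CPM to 398 and 408 CPM and 316 and 306 CPM (log2 fold change over 5 days -0.61 ± 0.03). PGAM1, the phosphoglycerate mutase, did so from 641 and 627 CPM to 424 and 446 CPM and 327 and 313 CPM (-0.99 ± 0.03, edgeR adjusted p = 4.0e-15). Of 62 pseudogenes annotated with a name derived from GAPDH, all were in the table, and together they held counts equal to 0.0316% of those of GAPDH. For PGAM1, TPI1, ENO1, LDHA and PKM this figure was at most 0.155%.

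Enolase and pyruvate kinase form the last steps to pyruvate. ENO1 (ENSG00000074800, chromosome 1 at 8861000 to 8879250), the ubiquitous enolase, went from 1095 and 1113 CPM to 344 CPM in both day 2 libraries and 449 and 456 CPM on day 5. Its fall on day 2 was 3.21-fold (log2 fold change -1.68 ± 0.02, edgeR adjusted p = 8.1e-20), and it rose 1.32-fold from day 2 to day 5 (edgeR adjusted p = 5.2e-11). PKM (ENSG00000067225, chromosome 15 at 72199029 to 72231822), the pyruvate kinase gene, fell from 3137 and 3206 CPM to 1304 and 1302 CPM and then to 1019 and 1018 CPM. Its first interval was a 2.43-fold fall and its second a 1.28-fold fall (edgeR adjusted p = 8.1e-20 and 4.1e-12). The table is per gene, so the M1 and M2 splice forms of PKM were not separated. ENO2, the neuron-specific enolase, fell, from 29.8 and 30.7 CPM to 19.7 and 17.8 CPM and 16.1 and 16.6 CPM (log2 fold change over 5 days -0.89 ± 0.09, edgeR adjusted p = 8.3e-08). Its 2 later days were not called against each other (-0.19, edgeR adjusted p = 0.0766), but were with library totals (-0.21, 0.0499) and without day 2 replicate 2 (-0.27, 0.0422). ENO3, the muscle enolase, rose from 4.57 and 4.81 CPM to 8.78 and 7.99 CPM and 12.8 and 14.8 CPM (1.56 ± 0.14, edgeR adjusted p = 2.5e-08). Its locus overlaps that of PFN1 on the opposite strand, which went the other way, from 964 and 996 CPM to 527 and 530.5 CPM. ENO1 still made 94.2 and 93.8% of enolase mRNA per length on day 5.

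Lactate dehydrogenase is a tetramer of A and B chains, of which A is favoured in glycolytic tissues and B in heart and in neurons. LDHA (ENSG00000134333, chromosome 11 at 18394388 to 18408425) fell from 523 and 519.5 CPM on day 0 to 231 CPM in both libraries on day 2 and 198 and 187 CPM on day 5 (day 5 against day 0, log2 fold change -1.44 ± 0.03, edgeR adjusted p = 2.3e-17). LDHB (ENSG00000111716, chromosome 12 at 21635342 to 21757857) had 555.5 and 541 CPM on day 0, 530.0 and 522 CPM on day 2 and 419 and 406 CPM on day 5, a 1.33-fold fall over 5 days (edgeR adjusted p = 9.3e-11). Its difference on day 2 (-0.06, edgeR adjusted p = 0.0343) was not called without day 0 replicate 1 (0.245), day 2 replicate 1 (0.0503) or day 2 replicate 2 (0.176). The log2 ratio of LDHB to LDHA counts within a library was 0.09 and 0.06 on day 0, 1.2 and 1.17 on day 2, and 1.08 and 1.12 on day 5. The shift towards LDHB thus lay in the first 2 days, and LDHA made 34.7 and 35.2% of the length-corrected sum on day 0 and 19.8 and 20% on day 2. With 2 libraries against 2, an exact permutation test of such a ratio cannot go below p = 0.33, and none is given.

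The monocarboxylate transporters moved in opposite directions. SLC16A3 (MCT4, ENSG00000141526, chromosome 17 at 82228397 to 82261129), the lactate exporter of glycolytic cells, fell from 505.5 and 516 CPM to 363 and 382 CPM on day 2 and 129 and 139 CPM on day 5. Most of this lay after day 2, where it fell 2.77-fold (log2 fold change -1.47 ± 0.04, edgeR adjusted p = 4.7e-16). CSNK1D, which overlaps it on the opposite strand, had 217 and 224 CPM on day 0 and 248.5 and 245 CPM on day 5. SLC16A1 (MCT1, ENSG00000155380, chromosome 1 at 112911847 to 112957013), the widespread form that carries lactate either way, rose from 23.0 and 22.4 CPM to 41.5 and 38.5 CPM and 53.0 and 53.6 CPM (2.35-fold over 5 days, log2 fold change 1.23 ± 0.07, edgeR adjusted p = 2.1e-11). SLC16A7 (MCT2, ENSG00000118596, chromosome 12 at 59596067 to 59789855), the high-affinity form of neurons, rose from 7.61 and 8.76 CPM to 45.2 and 48.3 CPM on day 2 (5.70-fold, log2 fold change 2.51 ± 0.09, edgeR adjusted p = 9.5e-14). By day 5 it had fallen again, to 14.9 and 14.6 CPM, still 1.79-fold above day 0 (edgeR adjusted p = 1.8e-06). SLC16A3 remained the most abundant of the 3 per length, with 97.6 and 97.7% of their sum on day 0 and 82.3 and 83.3% on day 5. BSG, the chaperone that carries SLC16A1 and SLC16A3 to the membrane, rose from 559 and 566 CPM to 684 and 727.5 CPM and 748 and 766 CPM (log2 fold change over 5 days 0.43 ± 0.03, edgeR adjusted p = 1.6e-10).

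At the branches, PGM1, which links glycolysis to glycogen, rose from 39.8 and 45.6 CPM to 54.4 and 54.8 CPM and 71.1 and 67.3 CPM (log2 fold change over 5 days 0.69 ± 0.06, edgeR adjusted p = 3.0e-08). PGM2, which acts mainly on pentose phosphates, rose 1.85-fold to 18.1 and 18.3 CPM on day 2 and fell to 7.67 and 7.80 CPM on day 5. The difference between day 5 and its 10.5 and 9.24 CPM on day 0 (-0.34, edgeR adjusted p = 0.0203) was lost without day 0 replicate 1 (0.132), day 5 replicate 1 (0.0695) or day 5 replicate 2 (0.0564). BPGM, which makes 2,3-bisphosphoglycerate, fell from 32.2 and 32.4 CPM to 21.2 and 23.5 CPM and 17.6 and 18.3 CPM (-0.84 ± 0.08, edgeR adjusted p = 8.1e-08). Its second interval (-0.31) was not called without day 2 replicate 2 (edgeR adjusted p = 0.0564).

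Summed per length over the isozymes of a step, the steps differed in how far they lay from day 0. On day 5 the glucose transporters SLC2A1 and SLC2A3 together stood at 31.2% of their day 0 mean and the lactate transporters at 31%. Pyruvate kinase was at 32.1%, hexokinase at 38.3% and enolase at 42.5%. The glucose transporter sum leaves out other SLC2A genes, of which SLC2A10 rose and SLC2A6 and SLC2A12 fell, as described below. The PFKFB enzymes were at 46.6% and phosphoglycerate mutase at 50.4%. Phosphofructokinase (61.9%), GAPDH (61.5%), lactate dehydrogenase (61.8%) and phosphoglycerate kinase (65.7%) lay in between. Phosphoglucose isomerase (97.6%), triosephosphate isomerase (83.1%) and aldolase (76.8%) lay closest to their day 0 level. Enolase and the sum of SLC2A1 and SLC2A3 had reached 32.5% and 32.6% already on day 2, when hexokinase was at 70.3% and the lactate transporters at 76.4%. GAPDH was at 107% on day 2 with TMM, but library totals gave a log2 fold change of -0.08, so no direction is given. Phosphoglucomutase was above its day 0 level on both later days, at 136% and 150%. These percentages are descriptions of summed levels with no test.

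**Figure D4:**
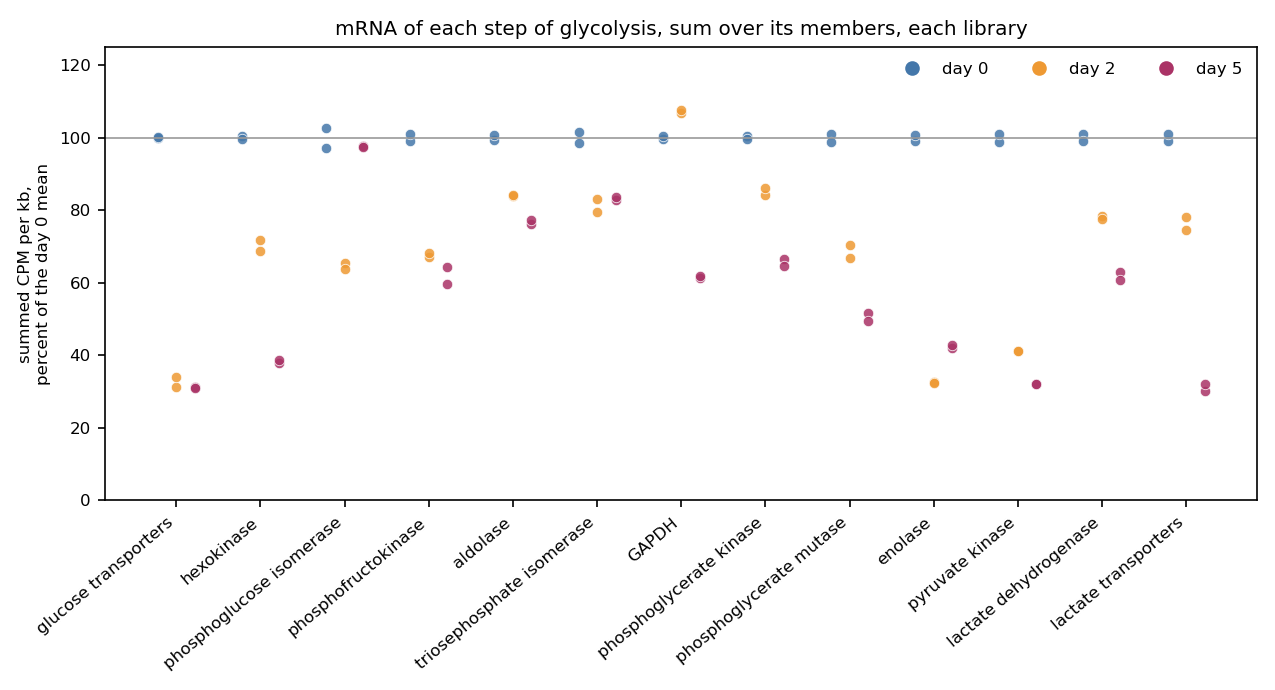
Summed length-corrected level (CPM per kb) of the genes of each step, as percent of the mean of the 2 day 0 libraries (y axis, from 0), in each library (points, coloured by day), ordered along the pathway from glucose entry to lactate exit (x axis). The transporters at both ends (for glucose, SLC2A1 and SLC2A3 only) and pyruvate kinase lie lowest on day 5, and phosphoglucose isomerase lies near 100%.

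Promoter sequences are shown for LDHA and LDHB, as isozymes that separated, for HK2, as a gene that fell late, and for SLC2A1, as one that fell early. The RefSeq promoter table (GRCh38.p14) held 57 windows for 28 of the 31 genes. The 250 bases before each start were searched on both strands for ACGTG (the core bound by hypoxia-inducible factors), CACGTG (the E-box, which contains ACGTG on both strands), TGACG (the core of the cAMP response element, CRE) and TGACGTCA (the full CRE, which contains TGACG on both strands). In each line the bases run 5′ to 3′ up to the most upstream start in the table, and capitals mark ACGTG on either strand and TGACGTCA. LDHA lies at chr11:18394313-18394562 (plus strand), LDHB at chr12:21657843-21658092 (minus strand), HK2 at chr2:74833877-74834126 (plus strand) and SLC2A1 at chr1:42958869-42959118 (minus strand). The gene positions given above come from another annotation (GENCODE), in which these genes begin farther upstream. By those positions the LDHA and HK2 stretches lie partly, and the LDHB and SLC2A1 stretches wholly, inside the gene.
LDHA: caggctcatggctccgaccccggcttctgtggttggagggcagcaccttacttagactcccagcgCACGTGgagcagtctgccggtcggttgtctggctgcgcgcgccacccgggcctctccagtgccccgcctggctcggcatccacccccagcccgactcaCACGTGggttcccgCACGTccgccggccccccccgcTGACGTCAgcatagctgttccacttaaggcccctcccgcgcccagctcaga
LDHB: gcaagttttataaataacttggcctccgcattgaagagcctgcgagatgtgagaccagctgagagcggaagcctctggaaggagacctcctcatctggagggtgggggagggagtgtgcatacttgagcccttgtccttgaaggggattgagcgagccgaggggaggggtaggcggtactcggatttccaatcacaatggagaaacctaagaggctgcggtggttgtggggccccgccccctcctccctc
HK2: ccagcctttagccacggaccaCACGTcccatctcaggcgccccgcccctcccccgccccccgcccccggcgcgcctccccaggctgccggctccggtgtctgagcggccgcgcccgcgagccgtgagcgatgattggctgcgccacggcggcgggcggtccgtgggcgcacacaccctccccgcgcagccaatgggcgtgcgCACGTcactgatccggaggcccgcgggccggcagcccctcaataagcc
SLC2A1: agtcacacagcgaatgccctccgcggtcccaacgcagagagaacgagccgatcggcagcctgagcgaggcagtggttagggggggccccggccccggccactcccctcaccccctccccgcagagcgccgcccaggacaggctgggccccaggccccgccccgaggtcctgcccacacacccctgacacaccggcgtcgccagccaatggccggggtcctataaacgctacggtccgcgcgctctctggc

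The LDHA stretch held 5 matches of ACGTG over both strands, 2 for each of its E-boxes and 1 more, with the first at position -185 from the start, and a full CRE at position -51. It was the only full CRE among the 57 windows, beside 1.65% of all 35116 windows. Neither ACGTG nor the full CRE was in the LDHB or SLC2A1 stretch, and the HK2 stretch held ACGTG 2 times and no full CRE. HK2 and LDHA each had a second window, farther downstream and not shown. That of HK2 held 4 matches of ACGTG and 2 E-boxes but no full CRE, and that of LDHA held none of these. ACGTG was in 20 of the 57 windows (35.1%) and in 18.5% of all windows, and the E-box in 7 (12.3%) and 6.34%. The CRE core TGACG was in 13 windows (22.8%) and in 21.2% of all. The median GC content of the windows was 68% for these genes and 58% for all, and its part in the difference was not tested. ACGTG was in at least 1 window of 17 of the 28 genes. The share over all genes was not counted for this, and the share of all windows is no measure for it. A gene with several windows, some of which overlap, has more places for a match. A match is a run of letters and not a measured binding site.

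Regulators of the pathway were described by a list chosen with earlier results known. Of 19 tested regulators, 11 were higher and 6 lower on day 2 (all genes, 33.4% each), and 13 higher and 5 lower on day 5 against day 0 (all genes, 35.8% and 34.1%). HIF1A, the oxygen-regulated subunit of a factor known to raise most glycolytic genes, rose from 129 CPM in both libraries on day 0 to 670 and 655 CPM on day 2 and stood at 358 and 351 CPM on day 5 (log2 fold changes against day 0 of 2.36 ± 0.03 and 1.46 ± 0.03, edgeR adjusted p = 1.4e-20 and 7.2e-18). HIF1A protein is controlled mainly by its breakdown, which these data do not measure. MYC, a factor that raises glycolytic genes in growing cells, had 15.8 and 16.2 CPM on day 0, 20.8 and 23.1 CPM on day 2 and 14.6 and 18.1 CPM on day 5. It rose to day 2 (0.46 on the log2 scale, edgeR adjusted p = 7.3e-04) and fell from day 2 to day 5 (-0.42, edgeR adjusted p = 0.00231), with no call over 5 days (edgeR adjusted p = 0.785). TXNIP, an arrestin-like protein that drives glucose transporters off the cell surface, rose from 524 and 527 CPM to 2684 and 2672 CPM on day 2 and fell to 126 and 132 CPM on day 5, 20.8-fold below day 2 (log2 fold change -4.38 ± 0.02, edgeR adjusted p = 8.3e-25). Its relative ARRDC4 took the same course, from 40.2 and 39.7 CPM to 97.6 and 99.2 CPM and 7.55 and 6.55 CPM. PPARGC1A, a coactivator of mitochondrial and gluconeogenic genes, stayed at 1.13 to 1.54 CPM up to day 2 and rose to 44.1 and 45.2 CPM on day 5 (33.6-fold above day 0, edgeR adjusted p = 1.7e-15).

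Of 16 tested hypoxia response genes outside glycolysis, 12 were higher and 2 lower on day 2 (median log2 fold change 0.67), beside 33.4% each of all genes. On day 5 against day 0, 9 were higher and 6 lower (median 0.13), beside 35.8% and 34.1% of all genes. VEGFA, an angiogenic factor, rose from 50.2 and 44.3 CPM to 141 and 146 CPM and 378 and 373 CPM. ADM, a vasodilator peptide, rose from 168 CPM in both libraries to 493 and 484 CPM on day 2 and fell to 36.4 and 33.0 CPM on day 5. DDIT4, an inhibitor of mTOR signalling, was not called on day 2 (edgeR adjusted p = 0.0611) and then rose, from 23.97 and 24.8 CPM to 109.7 and 105.8 CPM (log2 fold change 2.14 ± 0.06, edgeR adjusted p = 1.9e-15). EGLN3, which stands in the list of regulators, and CA9 had too few counts to be tested, with 7 and 13 over all 6 libraries. Both are named outside the rule used for the other genes.

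**Figure D5:**
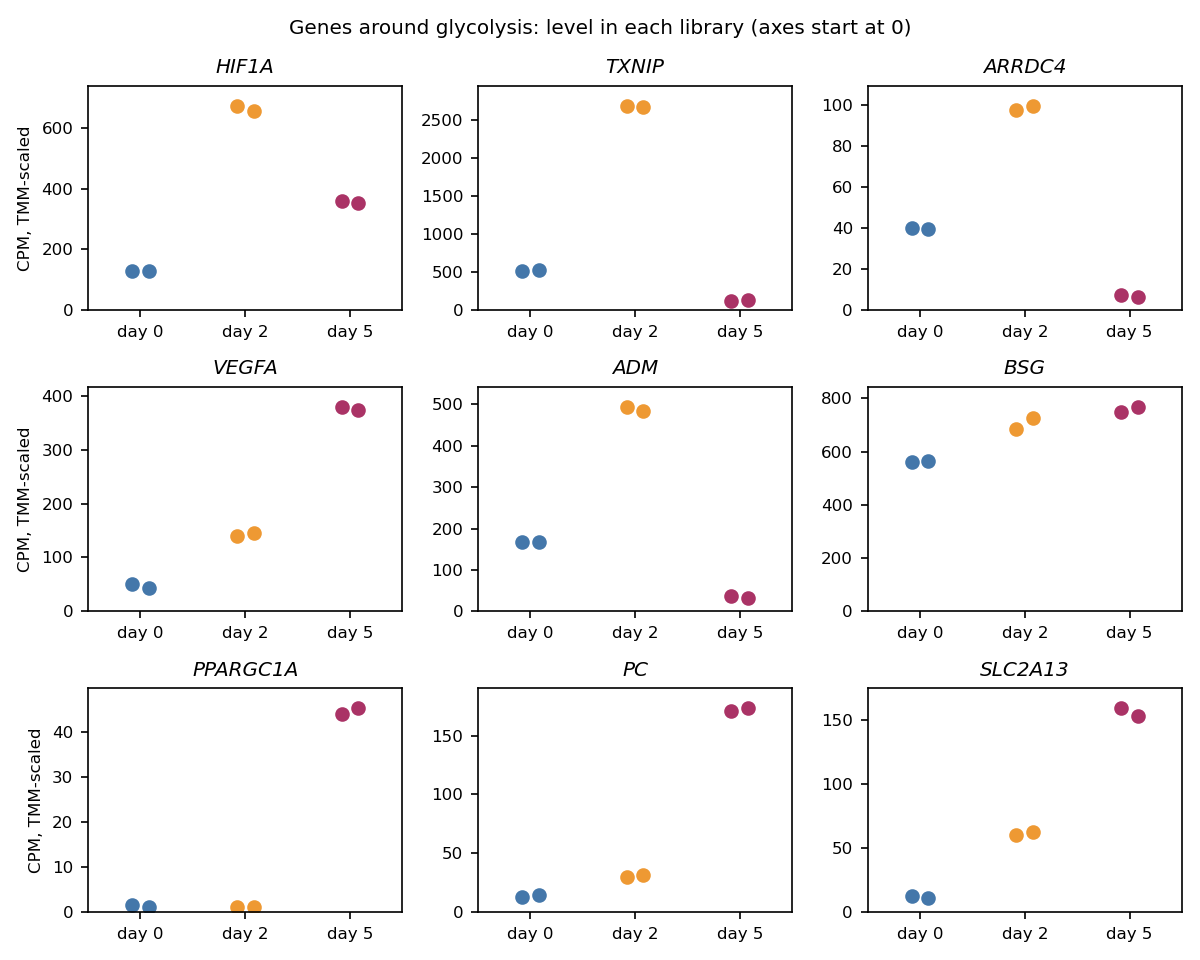
TMM-scaled CPM (y axes, from 0) of 9 genes around glycolysis in each library (points, coloured by day; x axes, day). HIF1A, TXNIP, ARRDC4 and ADM are highest on day 2, whereas VEGFA, PPARGC1A, PC and SLC2A13 are highest on day 5.

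Of 16 further glucose and lactate carriers and their chaperones, 10 had enough counts to be tested, of which 4 were higher and 3 lower on day 2 (all genes, 33.4% each), and 3 higher and 4 lower on day 5 against day 0 (all genes, 35.8% and 34.1%). SLC2A13, a proton-coupled myo-inositol carrier that is most abundant in brain, rose from 12.7 and 10.9 CPM to 60.7 and 63.1 CPM and 159 and 153.5 CPM (13.3-fold over 5 days, log2 fold change 3.73 ± 0.06, edgeR adjusted p = 1.8e-18). SLC2A6 fell from 22.6 and 27.4 CPM on day 0 to 5.93 and 4.42 CPM on day 5, and SLC2A12 from 11 and 10.1 CPM to 4.85 and 5.51 CPM. SLC2A10, named outside the rule, had 76.8 and 73.9 CPM on day 0 and 143 CPM in both day 5 libraries. Its log2 fold change over 5 days was 0.92 ± 0.04 (edgeR adjusted p = 4.1e-12), and on day 5 its CPM lay above those of SLC2A1 and SLC2A3. Of 17 other isozymes 5 could be tested. PGAM5, a mitochondrial phosphatase named for its likeness to the mutases, fell from 20.1 and 20.3 CPM on day 0 to 17.5 and 15.2 CPM on day 5 (-0.31, edgeR adjusted p = 0.0127). The liver pyruvate kinase gene PKLR had 1 count in all, HK3 2 and the testis form PGK2 0. HKDC1, another hexokinase, was singled out after its values were seen: it had 5.20 and 4.40 CPM on day 0, 0.416 and 0.260 CPM on day 2 and 0 counts in both libraries of day 5, where 3 counts correspond to 0.180 and 0.164 CPM.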

How the data were processed

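RNA from 6 libraries was analysed, 2 for each of day 0, day 2 and day 5. Libraries were TruSeq RNA libraries from TRIzol-extracted, DNase-treated total RNA, per the labels' protocols. The deposited values are expected counts per gene with no scaling, since 87.18% were exactly whole and library sums differ. The submitters' processing notes name GRCh38. Aligner, counter, annotation release and strandedness are not given in the sources used here, so reads of overlapping genes cannot be told apart. The authors' mean column per day was not used, and the deposited gene length served for levels per length.

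Counts were rounded. Rows with no gene name (172 of 60843, at most 0.0475% of a library) were left out, and of genes sharing a symbol the most abundant kept it. Groups came from the titles. All 6 libraries entered 1 fit by day with edgeR 4.0.16 under R 4.3.3, using TMM factors and filterByExpr (minimum count 10, minimum total 15), leaving 16327 genes and 3 residual degrees of freedom, and calls were made at an adjusted p under 0.05, two-sided. The SE is the log2 fold change over the square root of F. The steps were tested on simulated data. Other settings were DESeq2 1.42.0, limma-voom 3.58.1, RLE factors, library totals, no filter or a stricter filter (1 CPM in 4 libraries), only the days compared, the replicate block, glmTreat and each library left out, and, added after seeing the data, IGFBP5 left out before scaling. Each library entered the fit as 1 sample. Replicate pairs differed by more than sampling noise (chi-square per degree of freedom 2.33 to 2.44), which does not show whether they stem from separate cultures.

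The genes and lists were chosen with earlier results of these data known. Genes with a log2 fold change of at least 0.8 in size in any comparison or among the 8 highest levels were described in full, and of each of 9 other lists up to 3 genes with the largest called change at day 5 against day 0 and a mean of at least 5 CPM, plus HIF1A, MYC, TXNIP and BSG. Gene positions are those of GENCODE 29 on GRCh38, matched by identifier.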

Additional observations from a re-analysis of the deposited data

How the results depend on the processing

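Among 93 results (31 genes, 3 comparisons), all kept direction and side of the threshold with DESeq2, RLE factors, the replicate block and IGFBP5 left out (chosen after seeing the data), and 85 with library totals. For changes above 2-fold, glmTreat called 1 higher and 5 lower (day 2 from day 0), 2 and 9 (day 5 from day 0) and 0 and 5 (day 5 from day 2). Leaving out a library gave 10 higher and 19 to 20 lower, 5 to 6 and 20 to 21, and 7 to 8 and 20. With the replicate block the counts were 10 and 21, 5 and 22, and 8 and 20, as without it. Libraries sharing a number deviated together only weakly (correlations 0.028 to 0.049 across 11058 genes). What a shared number marks is not stated. Signs turned with library totals for PFKM (day 5 from day 0, -0.11, edgeR adjusted p = 0.0294), GAPDH (day 2, -0.08, 2.9e-05) and ADPGK (day 2, -0.02, 0.669), and without a count filter for TPI1 (day 5 from day 2, -0.01). Without a day 0 library, the day 5 differences of GPI ranged from -0.07 to 0.01 and those of ADPGK from -0.10 to 0.01. The change of a log2 ratio from day 0 ranged from -0.03 to 0.10 for HK2 to HK1 on day 2, and from -0.06 to 0.16 for ALDOC to ALDOA on day 5 (-0.002 without day 0 replicate 2). Adding 0.5 counts turned none of the 26 ratio changes. The causes were not tested. Counts are lowest for PFKFB2 and ENO3, which limits their precision.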

Other observations

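Pathways that branch off glycolysis were described by lists chosen with earlier results known. Their counts stand beside 66.8% of all genes called on day 2 (33.4% higher and 33.4% lower) and 69.9% on day 5 against day 0 (35.8% higher and 34.1% lower). In the hexosamine pathway, which feeds sugar into protein glycosylation, 6 of 7 tested genes were higher and 1 lower on day 2 (median log2 fold change 0.90), and 3 were higher and 4 not called on day 5 against day 0. GFPT2, an isoform of its rate-limiting enzyme, rose from 4.65 and 3.54 CPM to 17.7 and 18.3 CPM and 26.1 and 28.9 CPM (log2 fold change over 5 days 2.76 ± 0.13, edgeR adjusted p = 2.3e-12), while GNPNAT1 fell on day 2, from 19.4 and 19.8 CPM to 14.1 and 13.0 CPM, before it rose to 32.1 and 30.3 CPM. OGT, which attaches the sugar to proteins, had 89.7 and 90.2 CPM on day 0 and 189.5 and 181 CPM on day 5. In the pentose phosphate pathway, 4 of 8 genes were higher and 4 lower on day 2, and 2 higher and 5 lower on day 5 against day 0. TALDO1, the transaldolase, fell 4.24-fold over 5 days, from 385 and 378 CPM to 91.0 and 89.1 CPM. H6PD, an enzyme of the endoplasmic reticulum, rose from 107.5 and 117 CPM to 309.8 and 319.5 CPM.

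Of 12 tested glycogen genes, 2 were higher and 9 lower on day 5 against day 0, among them PYGL, the liver phosphorylase, at 61.5 and 60.6 CPM on day 0 and 14.5 and 15.3 CPM on day 5. PPP1R3C and PPP1R3B, which target a phosphatase to glycogen, fell 3.56-fold and 3.74-fold. Of 7 gluconeogenic genes 3 could be tested. PC, the pyruvate carboxylase, rose 12.3-fold over 5 days, from 12.9 and 14.9 CPM to 170.5 and 173 CPM (log2 fold change 3.62 ± 0.06, edgeR adjusted p = 1.8e-18), and G6PC3 fell 1.44-fold, whereas FBP1, FBP2 and PCK1 had 0 counts in all 6 libraries. Another list held genes of pyruvate entry into mitochondria and of shuttles across their membrane. Of 8 tested, 3 were higher and 4 lower on day 5 against day 0 (all genes, 35.8% and 34.1%). MPC2, of pyruvate entry, was 1.70-fold and the aminotransferase GOT1 1.66-fold higher on day 5 than on day 0. Both had fallen on day 2 (edgeR adjusted p = 0.00232 and 7.1e-09). MPC1, also of pyruvate entry, was not called on day 5 against day 0 (0.28, edgeR adjusted p = 0.0536), and GPD1L was 1.85-fold lower.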
